A study of Oryza sativa with 13 samples.

Results

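The regions described here are the long stretches of methylated DNA that every library of developing rice seed had in common. Touching or overlapping peaks of the 7 peak lists were joined, which gave 70419 merged regions. The members were chosen by their merged length, 4000 bp or more, and by the presence of at least 1 bp of peak in all 7 libraries. This left 1560 members, which were 2.22% of all merged regions and 8.41% of the 18550 regions shared by all 7 libraries. They held 8.25 Mb, or 20.7% of the length of the shared regions. Merged regions of that length numbered 2170 in all, and those that lacked a peak in 1 or more libraries are not members.

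Methylation was measured by capturing DNA fragments with an antibody against 5-methylcytosine and sequencing them (MeDIP-seq). The embryo libraries came from Zhonghua11 (ZH-11, a japonica cultivar) at 3, 6 and 9 days after pollination (DAP), and the endosperm libraries from the same cultivar at 2, 3, 6 and 9 DAP. Each tissue and stage was 1 library, and the 6 samples of the indica cultivar 93-11 were not analysed here. The tissues were separated by hand under a dissecting microscope, the labels do not say how many seeds went into a library, and no expression data were at hand to check the tissues against marker genes. Stages of a tissue stand in for replicates below. Each SD thus measures the spread between single libraries of different age, and each p compares the tissues over such libraries.

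In plants, cytosines are methylated in the CG context by the maintenance enzyme MET1, in the CHG context mainly by chromomethylases, and in the CHH context by chromomethylases and by the RNA-directed pathway through DRM enzymes. Long methylated stretches are typical of transposable elements, above all long retrotransposons, and of the heterochromatin around centromeres. The endosperm arises from the fertilised central cell, whose maternal genome loses part of its methylation through DNA glycosylases of the DEMETER family, ROS1a in rice. The antibody captures all contexts together, so the peaks give the extent of dense methylation and not its context. No genome of the files' build was at hand, so the genes, transposable elements and sequences under the members are not described.

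Depth after the authors' filtering was 8062289 to 8423857 tags (aligned reads) in the embryo libraries and 6833917 to 7465986 tags in the endosperm libraries. All embryo libraries were thus deeper and had longer lists, 51509 to 55242 peaks against 32986 to 36871 in endosperm. Depth and tissue cannot be told apart by grouping the libraries.

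The members ran from 4000 to 12659 bp, with a median of 4955 bp and quartiles of 4425 and 5850 bp. There were 332 members of 6 kb or more, 41 of 8 kb or more and 10 of 10 kb or more. The members just inside the threshold measured 4000, 4001, 4002, 4002 and 4002 bp, and the shared regions just outside it 3998, 3997, 3995, 3995 and 3994 bp. Mean covered shares ran from 26.0% to 93.2% in embryo and from 57.8% to 93.9% in endosperm just inside, and from 30.7% to 93.8% in embryo and from 46.0% to 98.0% in endosperm just outside. The ranges overlapped on both sides of the threshold.

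Most members owed their length to endosperm peaks. The longest single peak of a member lay in an embryo library in 140 members and in an endosperm library in 1420 (91.0%). There were 3 embryo and 4 endosperm libraries to draw from, and no like count was made over all shared regions. Endosperm at 9 DAP alone gave the longest peak in 578 members and endosperm at 2 DAP in 444, while embryo at 3, 6 and 9 DAP gave it in 69, 30 and 41. A single peak of 4 kb or more was found only in embryo libraries in 38 members, only in endosperm libraries in 957 and in both tissues in 284. The other 281 members held no peak of that length in any library and reached it only by merging. One peak spanned the whole merged region in 228 members. Since the merged length chose the members and endosperm peaks mostly set it, the values inside the members are given first as a description without tests, and tests follow on regions that the measured library itself did not help to choose.

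Peaks covered less of the long regions in embryo than in endosperm. In embryo at 3, 6 and 9 DAP they covered 62.2%, 56.6% and 54.9% of the members' length, against 77.5%, 76.0%, 75.9% and 83.2% in endosperm at 2, 3, 6 and 9 DAP. The means were 57.9% ± 3.79 in embryo (SD, n = 3) and 78.2% ± 3.46 in endosperm (SD, n = 4), and every embryo library lay below every endosperm library. In the 16990 shorter shared regions the tissues stood closer, at 73.1% ± 0.756 in embryo and 77.4% ± 1.62 in endosperm. Every embryo library lay below every endosperm library there too, at 72.5% to 73.9% against 75.8% to 79.3%. Embryo peaks thus filled a smaller share of long regions than of shorter ones, while endosperm peaks filled nearly the same share of both.

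The embryo signal in a member was more often split into several peaks. A member held 1.45, 1.46 and 1.48 separate peaks on average in embryo at 3, 6 and 9 DAP, against 1.16, 1.32, 1.27 and 1.21 in endosperm at 2, 3, 6 and 9 DAP. A single peak was present in 58.0% ± 1.31 of members in embryo and 77.9% ± 5.68 in endosperm, and 2 peaks in 37.9% ± 1.08 and 20.4% ± 4.75. Members with 3 or more peaks made up 4.08% ± 0.267 in embryo and 1.71% ± 1.01 in endosperm, and no library had more than 4 in a member. In 480 members (30.8%) every library had exactly 1 peak, with no like count over all shared regions. In 84 members (5.38%) every embryo library had 2 or more peaks where every endosperm library had 1, against 1.51% of all shared regions, and no member showed the reverse, against 0.173%. With equal numbers of highest-scoring peaks taken from every list, the order of the tissues in peak number turned round, as given with the tests.

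The longest embryo peak in a member was also shorter. Its median was 2511.5, 2204 and 2117.5 bp in embryo at 3, 6 and 9 DAP, against 3850, 3593.5, 3612.5 and 4116 bp in endosperm at 2, 3, 6 and 9 DAP. A peak of 4 kb or more lay in 15.4%, 10.6% and 8.59% of members in the embryo libraries and in 46.2%, 37.9%, 39.0% and 55.2% in the endosperm libraries. Such a peak was present in all 3 embryo libraries in 76 members, in all 4 endosperm libraries in 279 and in all 7 libraries in 55. A member with such a peak could hold further peaks in the same library.

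**Figure D1:**
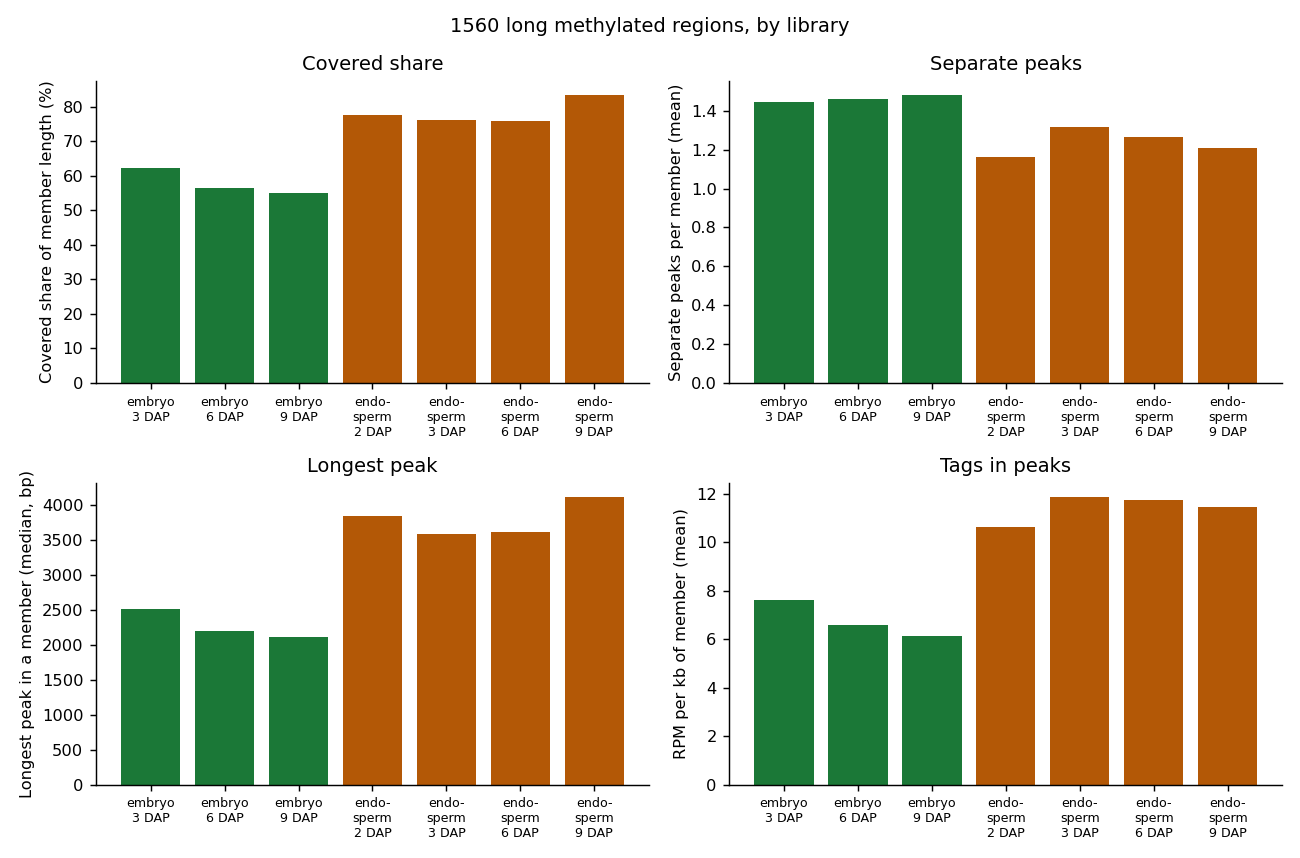
Covered share (% of member length), mean number of separate peaks, median longest peak (bp) and mean RPM per kb in the 1560 long regions, 1 bar per library, embryo (green) left of endosperm (orange) and by stage within a tissue. In each panel the 3 embryo bars lie apart from the 4 endosperm bars, as with covered shares of 54.9% to 62.2% in embryo and 75.9% to 83.2% in endosperm.

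Tag levels differed the same way. The number of tags inside peaks, scaled to a common number of filtered tags (reads per 1000000, RPM) and by the length of the member in kb, was 7.61, 6.59 and 6.15 in the embryo libraries at 3, 6 and 9 DAP. The endosperm libraries held 10.6, 11.9, 11.8 and 11.4 RPM per kb at 2, 3, 6 and 9 DAP. The members took up 5.55% ± 0.625 of all filtered tags in embryo (SD, n = 3) and 9.49% ± 0.458 in endosperm (SD, n = 4). The embryo libraries were deeper, and the part of depth in this was not tested. In shorter shared regions the level was 8.33 ± 0.154 RPM per kb in embryo and 9.14 ± 0.351 in endosperm.

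Tags outside peaks were not counted, so the level per kb of member depends on the covered share. Per kb actually covered by peaks, the members held 11.6 ± 0.543 RPM in embryo and 14.8 ± 1.05 RPM in endosperm, and shorter shared regions 11.0 ± 0.197 and 12.1 ± 0.693 RPM. The authors' fold enrichment, the ratio of tags at a peak's summit to its local background, had a median of 4.99 ± 0.0651 in embryo and 4.49 ± 0.364 in endosperm for peaks in members. For peaks in shorter shared regions it was 6.96 ± 0.208 in embryo and 7.21 ± 0.540 in endosperm. That background was taken over 10 kb of the same library, so a peak of several kb enters its own background. How far this lowered the fold was not tested, and a low fold alone does not show weak methylation.

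The uncovered bases of embryo lay mainly outside a library's outermost peaks in a member and less often in gaps between peaks. Where a library had a single peak, every uncovered base counted as outside, so such stretches could reach the middle of a member. Stretches outside the outermost peaks made up 35.3% ± 3.11 of member length in embryo and 19.8% ± 3.09 in endosperm. Gaps between peaks of the same library made up 6.81% ± 0.862 in embryo and 2.01% ± 0.748 in endosperm. In the outermost twentieth at each end, 28.2% ± 2.52 of members were covered in embryo and 47.0% ± 7.0 in endosperm. At the middle it was 67.1% ± 4.90 in embryo and 88.2% ± 2.59 in endosperm. The embryo libraries therefore lay below the endosperm libraries along the whole region, its middle included.

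**Figure D2:**
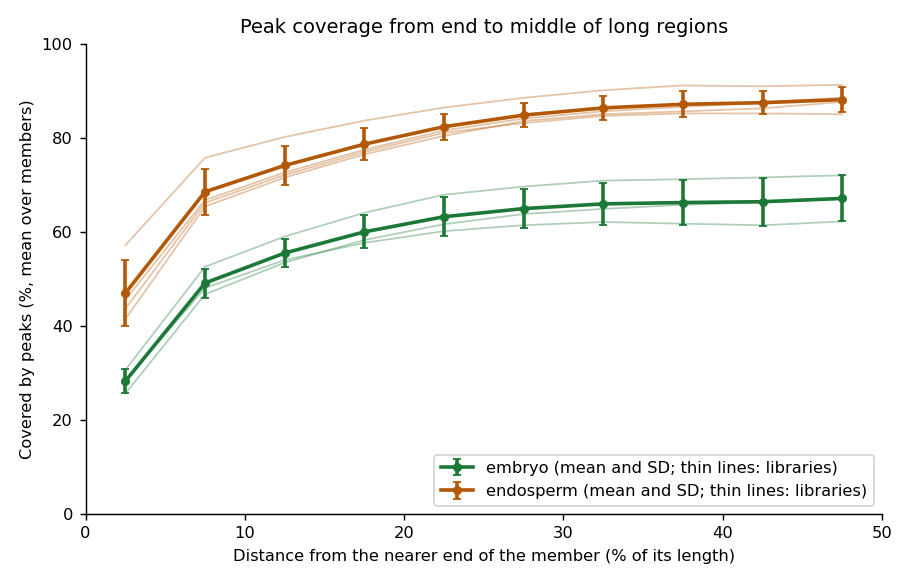
Share of the 1560 members covered by peaks (%) against the distance from the nearer end of the member (% of its length), in steps of a twentieth with both ends folded together. Thick lines are tissue means with SD over libraries, thin lines single libraries; embryo (green) reaches 67.1% at the middle and endosperm (orange) 88.2%.

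Base by base, 38.3% of the members' length was covered in all 7 libraries. All 3 embryo libraries covered 44.6% of it and all 4 endosperm libraries 57.9%. Bases in all 3 embryo libraries but no endosperm library made up 0.692%, and bases in all 4 endosperm libraries but no embryo library 5.26%. With any 1 library enough, 2.35% was covered in embryo alone and 28.4% in endosperm alone. A single library accounted for 11.6% of the length.

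In the classes under 2 kb the embryo mean lay slightly above the endosperm mean. From 2 to 3 kb on it lay below, by more in each longer class up to 8 kb and by less again in the 41 regions beyond. In shared regions under 1 kb, embryo peaks covered 80.7% ± 0.326 and endosperm peaks 79.2% ± 2.78. In regions of 1 to 2 kb the shares were 78.0% ± 0.161 in embryo and 77.6% ± 1.76 in endosperm. They were 70.7% ± 1.01 and 76.6% ± 1.83 at 2 to 3 kb, and 64.4% ± 2.63 and 78.0% ± 2.20 at 3 to 4 kb. Among the members the embryo share was 61.6% ± 3.69 at 4 to 5 kb, 57.6% ± 3.75 at 5 to 6 kb, 53.2% ± 4.07 at 6 to 8 kb and 49.1% ± 3.95 at 8 kb or more. The endosperm share was 79.4% ± 3.09, 78.2% ± 3.80, 77.6% ± 4.53 and 69.3% ± 1.78 in the same classes, so it was lower only in the 41 longest. The classes rest on the merged length that chose the members, and the trend is a description.

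**Figure D3:**
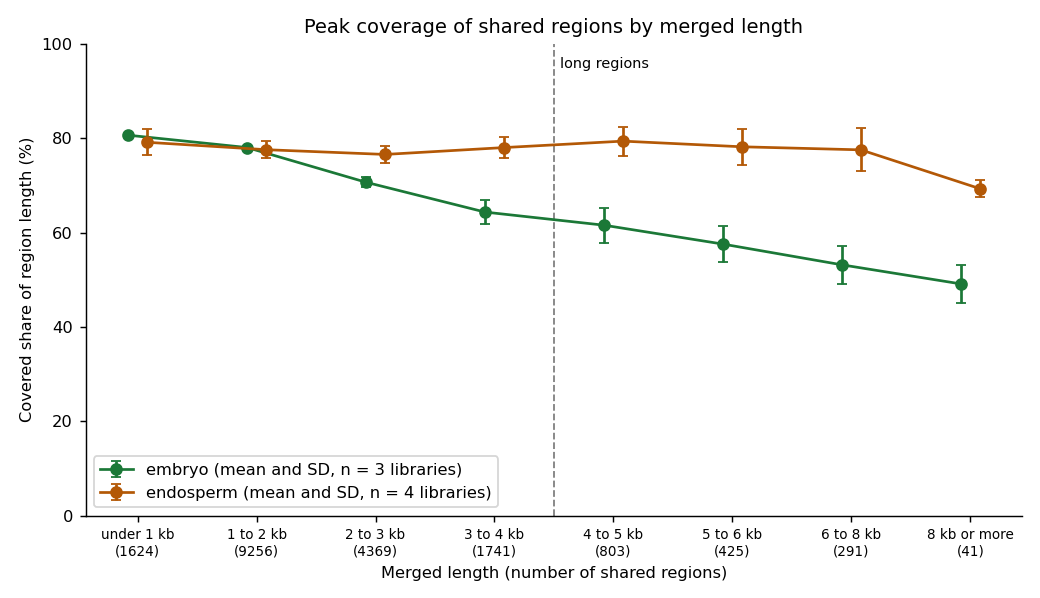
Covered share of region length (%) by class of merged length, for all 18550 shared regions, with the number of regions under each class. Points are tissue means with SD over 3 embryo (green) and 4 endosperm (orange) libraries; the embryo share goes from 80.7% under 1 kb to 49.1% at 8 kb or more, and the dashed line marks 4 kb.

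Each library was next measured in the long regions that the other 6 libraries defined, 1335 to 1556 regions. This takes the measured library out of the choice but not its tissue, since at least 3 endosperm libraries still took part in setting the lengths. The tests on these values are therefore not independent of the choice of regions by tissue. The direction was the same as in the members for all 6 measures, and no embryo library overlapped an endosperm library in any of them. The covered share was 61.1%, 55.7% and 53.1% in embryo at 3, 6 and 9 DAP, against 71.1%, 74.6%, 74.1% and 76.3% in endosperm at 2, 3, 6 and 9 DAP. Embryo was lower by 17.4 points, at 56.6% ± 4.10 (SD, n = 3) against 74.0% ± 2.20 (SD, n = 4). A region held 1.44 ± 0.00361 separate peaks in embryo and 1.20 ± 0.0893 in endosperm, and the median longest peak measured 2245.5 ± 207 bp in embryo and 3654 ± 214 bp in endosperm. When each list was cut to the same number of best-scoring peaks, the order of the peak numbers was reversed, at 1.09 in embryo and 1.19 in endosperm (two-sided exact permutation p = 0.171). A peak of 4 kb or more lay in 11.0% ± 3.37 of these regions in embryo and 40.6% ± 5.83 in endosperm. The tag level was 6.65 ± 0.779 RPM per kb in embryo and 11.0 ± 0.885 in endosperm, and the median fold enrichment 4.99 ± 0.0651 and 4.48 ± 0.372.

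Each of these 6 differences gave p = 0.0571 in the two-sided exact permutation test over the 35 ways of labelling 3 of 7 libraries, before and after Benjamini-Hochberg adjustment. This is the smallest p the design allows, so none could pass 0.05. The covered share of long regions minus that of shorter shared regions was also compared, a measure added after seeing the data. It was -14.0 ± 2.52 points in embryo and -0.365 ± 0.789 points in endosperm (two-sided exact permutation p = 0.0571). With peaks of a fold enrichment of 5 or more alone, the covered-share difference shrank to -5.09 points (two-sided exact permutation p = 0.629). Leaving out endosperm at 9 DAP as well, chosen after seeing the data, gave -6.95 points (two-sided exact permutation p = 0.3). With the fold filter alone, the differences were 0.237 peaks, -490 bp in longest peak, -2.07 RPM per kb and 0.219 in fold enrichment (two-sided exact permutation p = 0.171, 0.229, 0.229 and 0.571). The share with a peak of 4 kb or more differed by -9.85 points (two-sided exact permutation p = 0.0571).

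The covered-share difference depended on which tissue defined the regions. The 3 embryo libraries alone gave 532 regions of 4 kb or more, and the 4 endosperm libraries alone gave 1502. Of the 532 regions defined by embryo, 394 (74.1%) lay inside members, in 394 different members (25.3% of all). The endosperm libraries were measured in these 532 regions, and each embryo library in the 365, 450 and 473 regions that the other 2 embryo libraries defined. Embryo libraries covered 80.7%, 72.1% and 71.4% at 3, 6 and 9 DAP. Endosperm libraries covered 69.6%, 79.2%, 73.1% and 71.2% at 2, 3, 6 and 9 DAP, so the groups overlapped. The means were 74.7% ± 5.16 in embryo and 73.3% ± 4.21 in endosperm (two-sided exact permutation p = 0.571). The tissues also overlapped there in longest peak, share with a peak of 4 kb, tag level and fold enrichment. The differences were -485 bp, -13.7 points, -2.53 RPM per kb and 0.246 (two-sided exact permutation p = 0.171, 0.114, 0.114 and 0.171). The number of separate peaks did not overlap, at 1.13 in embryo and 0.936 in endosperm, regions without a peak included (two-sided exact permutation p = 0.0571).

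To set both tissues in the same regions, a comparison chosen after seeing the data, the endosperm libraries were also measured in the regions that each pair of embryo libraries defined. In the 365 regions without embryo at 3 DAP in their definition, that library covered 80.7%, above the endosperm libraries at 68.0% to 76.0%. Embryo at 6 DAP covered 72.1% of its 450 regions, against 67.1% to 78.2% in endosperm, and embryo at 9 DAP 71.4% of its 473, against 69.4% to 79.0%. Coverage was thus higher than in every endosperm library for 1 embryo library and within their range for the other two.

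A peak of 4 kb or more lay in 53.4%, 36.4% and 32.1% of these regions in embryo at 3, 6 and 9 DAP. In the same regions it lay in 52.9% to 59.2%, 46.7% to 61.1% and 52.0% to 60.7% in endosperm, so the embryo libraries at 6 and 9 DAP lay below all endosperm libraries and that at 3 DAP within their range. Regions with a peak held 1.13, 1.21 and 1.25 separate peaks in embryo, against 1.05 to 1.09, 1.08 to 1.09 and 1.06 to 1.09 in endosperm. Between 20 and 24 of the regions had no peak in the embryo library measured, against 55 to 101 in an endosperm library.

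The difference of long minus shorter regions was -25.7 points with regions defined by embryo. Its shorter regions then needed no endosperm peak, so it is not comparable with the value above. The tissue means there were -7.07 ± 5.49 points in embryo and 18.7 ± 2.97 in endosperm. With regions defined by endosperm, the shorter regions needed no embryo peak. The difference was then -6.97 points, from -10.5 ± 2.17 in embryo and -3.51 ± 1.48 in endosperm, so this measure also moved with the choice of regions. In the endosperm-defined regions embryo covered 54.8% ± 4.15 and endosperm 74.4% ± 2.10 (two-sided exact permutation p = 0.0571). Embryo libraries were measured in all 1502, each endosperm library in the 1277 to 1463 that the other endosperm libraries defined. No embryo peak was needed, and 36 to 55 of the 1502 regions had none in a given embryo library. The test is thus not independent of the choice of regions by tissue, as with the regions defined by embryo. With equal numbers of highest-scoring peaks in every library, an alternative chosen after seeing the data, the embryo-defined regions were covered to 71.2% in embryo and 81.6% in endosperm (two-sided exact permutation p = 0.171). With peaks of a score of 100 or more, also chosen after seeing the data, the shares were 71.6% in embryo and 74.5% in endosperm (two-sided exact permutation p = 0.457).

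**Figure D4:**
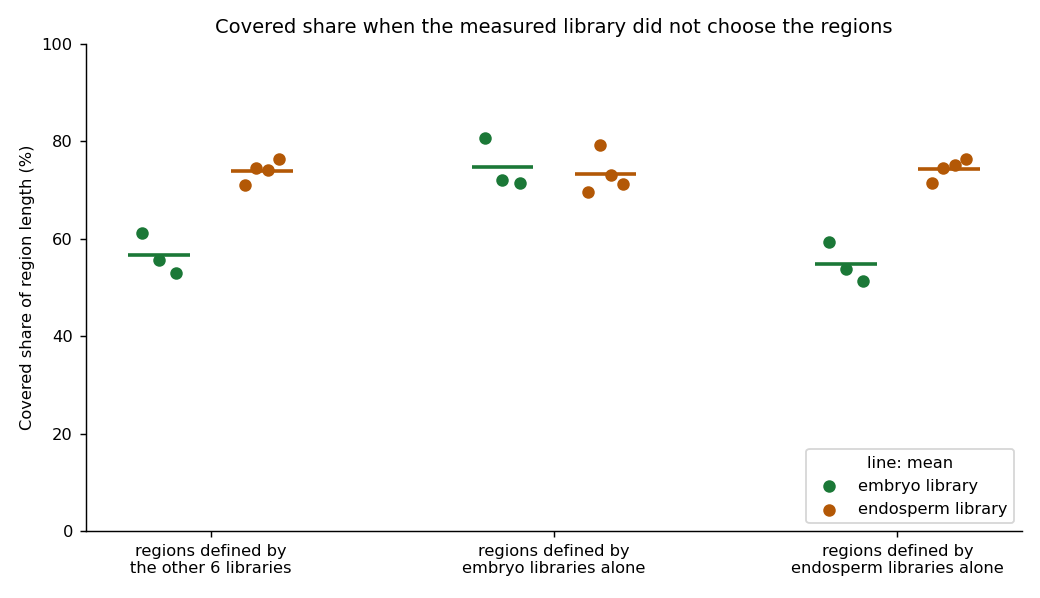
Covered share of region length (%) for each library (points; lines are tissue means, embryo green and endosperm orange) in long regions defined by the other 6 libraries, by embryo libraries alone and by endosperm libraries alone, the measured library never taking part. The tissues are apart in the sets defined by the other 6 libraries and by endosperm alone, at means of 56.6% against 74.0% and 54.8% against 74.4%, and overlap in the set defined by embryo alone.

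Region by region, the covered share was lower in every embryo than in every endosperm library in 635 members (40.7%), compared with 17.7% of all shared regions. It was higher in every embryo library in 40 members (2.56%), compared with 13.4%. In shared regions of 3 to 4 kb the shares were 32.9% and 6.38%. Over the members, the median difference of the tissue means was -20.3 points, with quartiles of -32.4 and -8.97, and 1366 members (87.6%) had the lower mean in embryo. In shorter shared regions the median was -3.06 points and 57.3% had the lower mean in embryo. The tissue means were within 10 points of each other in 333 members (21.3%), a share not counted for shorter shared regions.

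The tag level was at least 2-fold lower in embryo with no overlap between the tissues in 479 members (30.7%), against 8.5% of all shared regions. It was at least 2-fold higher in embryo in 13 members (0.833%), against 5.23%. Relative to each library's median in shorter shared regions, the numbers were 336 (21.5%) against 5.4% and 14 (0.897%) against 7.18%. More separate peaks in every embryo than in every endosperm library were found in 90 members (5.77%), against 1.57%, and fewer in none, against 0.173%. In the 532 embryo-defined regions the covered share was lower in every embryo library in 7.71% and higher in 11.8%, so these counts also follow the choice of regions. The embryo libraries counted there had also defined these regions, which needed no endosperm peak.

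**Figure D5:**
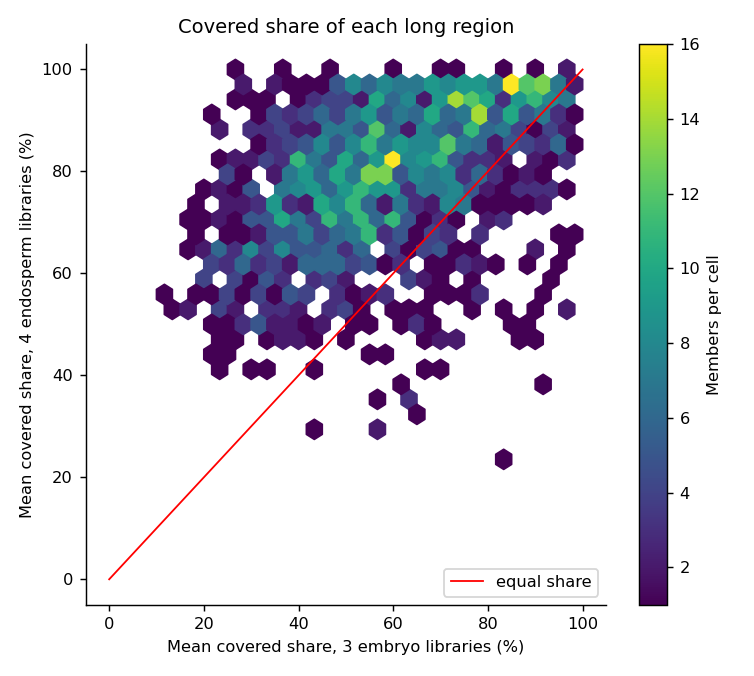
Mean covered share of each of the 1560 members over the 4 endosperm libraries (vertical, %) against that over the 3 embryo libraries (horizontal, %); colour gives the number of members per cell and the red line marks equal shares. Most members, 1366 of 1560, lie above the line.

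The 10 longest members held 1 to 4 peaks in a library, and the same region was covered nearly whole in some libraries and in small part in others. The longest, on chromosome 5 from 11682304 to 11694962 (12659 bp), was covered to 44.1%, 51.5% and 13.5% in embryo at 3, 6 and 9 DAP, against 97.4%, 69.6%, 74.5% and 73.3% in endosperm at 2, 3, 6 and 9 DAP. The next, on chromosome 5 from 6178532 to 6190458 (11927 bp), was covered to 35.5%, 30.2% and 35.7% in embryo and to 79.5%, 6.56%, 76.7% and 82.9% in endosperm. Endosperm at 3 DAP thus had only 1 peak of 783 bp there, below all other libraries. Another, on chromosome 11 from 20924788 to 20936541 (11754 bp), was covered to 15.7%, 39.6% and 49.8% in embryo and to 78.4%, 97.0%, 24.6% and 99.2% in endosperm. Here endosperm at 6 DAP stood with the embryo libraries.

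Chromosome 5 held 4 of these 10 regions. In the region from 11933273 to 11944131 (10859 bp), embryo libraries covered 49.8%, 54.6% and 35.1% in 2 or 3 peaks, and endosperm libraries 96.4%, 94.5%, 95.6% and 95.9%. This was the most even of the 10 among endosperm libraries, and its longest peak there was 5086 to 6740 bp, compared with 1909 to 2301 bp in embryo. The last of the 4, from 25203677 to 25214254 (10578 bp), was covered to 40.1%, 57.1% and 50.1% in embryo and to 62.5%, 81.1%, 95.4% and 62.8% in endosperm. The region on chromosome 10 from 16927028 to 16937136 (10109 bp) took only values near either end, with 29.2%, 27.1% and 27.4% in embryo and 27.2%, 97.2%, 26.9% and 99.1% in endosperm. A single peak of 2716 to 2948 bp was thus the whole signal in 5 libraries, and the other 2 libraries had 2 peaks over nearly the full length.

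The other long members were 18992906 to 19003916 of chromosome 3, 6626616 to 6637617 of chromosome 10, 26996965 to 27007583 of chromosome 6 and 9999778 to 10010013 of chromosome 12. The mean difference between the tissues in these regions was -16.0, -39.8, -21.5 and -20.1 points, and the groups overlapped in all but that on chromosome 10 (20.7% to 26.0% in embryo, 32.8% to 92.1% in endosperm). The region on chromosome 6 was covered to 69.1%, 17.6% and 67.2% in embryo and to 84.9%, 85.8%, 97.3% and 23.2% in endosperm. One library of each tissue therefore had only a short peak there, embryo at 6 DAP and endosperm at 9 DAP.

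The members with the largest difference in covered share toward endosperm were held in embryo by 1 or 2 short peaks. The first, on chromosome 9 from 4260698 to 4267535 (6838 bp), was covered to 26.2%, 29.3% and 25.5% in embryo at 3, 6 and 9 DAP and to 99.0%, 97.0%, 98.7% and 99.6% in endosperm at 2, 3, 6 and 9 DAP, a difference of -71.6 points. Its tag level was 23.7, 24.8 and 20.9 RPM in embryo and 107, 120.0, 134 and 123 RPM in endosperm. Each embryo library had 1 peak of 1747 to 2004 bp where endosperm libraries had peaks of 4617 to 6812 bp.

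The same layout was seen on chromosome 3 from 30129852 to 30137572 (7721 bp). Embryo libraries covered 27.8%, 28.6% and 29.9% of it in 1 peak of 2149 to 2306 bp, and endosperm libraries 96.3%, 95.9%, 97.6% and 96.6% in 1 peak of 7407 to 7534 bp. The region on chromosome 1 from 5585019 to 5589146 (4128 bp) was covered to 28.8%, 30.1% and 27.1% in embryo and to 95.5%, 95.3%, 99.4% and 98.1% in endosperm. In these regions the libraries of a tissue differed by a few points only, against differences of over 60 points between the tissues.

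The others of this group were 8599529 to 8604436 of chromosome 1 and 14345483 to 14350870 of chromosome 11, with differences of -68.1 and -67.7 points. The first of them, 4908 bp long, also had one of the lowest tag ratios of all members. It held 12.8, 5.22 and 6.89 RPM in embryo and 58.5, 65.1, 67.8 and 58.0 RPM in endosperm, a log2 ratio of -2.91.

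The other 4 members with the lowest ratio of embryo to endosperm tags were 18414487 to 18420510 of chromosome 8, 23165133 to 23170681 of chromosome 6, 9754572 to 9759171 of chromosome 4 and 6097358 to 6102508 of chromosome 8. Their log2 ratios of mean RPM were -2.92, -2.89, -2.71 and -2.70. The first was uneven among endosperm libraries, with 4.47, 12.5 and 4.51 RPM in embryo and 132, 7.29, 45.6 and 31.6 RPM in endosperm. The groups overlapped there, since endosperm at 3 DAP lay below embryo at 6 DAP. The last was more even, with 7.69, 6.32 and 6.89 RPM in embryo and 30.7, 50.8, 36.0 and 63.4 RPM in endosperm, and endosperm at 9 DAP covered it from end to end.

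A few members went the other way. On chromosome 3 from 23214111 to 23219412 (5302 bp) embryo libraries covered 97.7%, 78.5% and 78.4% in 2 peaks, and endosperm libraries 23.3%, 30.7%, 20.1% and 22.8% in 1 peak. It had both the largest covered-share difference toward embryo, 60.6 points, and the highest tag ratio, a log2 of 2.11. Its tag level was 65.9, 54.5 and 50.8 RPM in embryo and 12.4, 17.3, 11.0 and 12.2 RPM in endosperm.

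On chromosome 4 from 32883110 to 32888496 (5387 bp) embryo libraries covered 95.3%, 96.5% and 96.0%, each in 1 peak, while endosperm libraries covered 95.1%, 48.2%, 44.2% and 27.6% at 2, 3, 6 and 9 DAP. The groups came close only through endosperm at 2 DAP, whose peak of 5123 bp was nearly as long as the 5136 to 5199 bp of embryo. A second region of chromosome 4, from 29818103 to 29824776 (6674 bp), was covered to 99.6%, 95.1% and 94.7% in embryo and to 38.8%, 85.9%, 57.8% and 36.3% in endosperm. The remaining 2 of the group were 6671912 to 6676923 of chromosome 5 and 24085248 to 24090870 of chromosome 2, with differences of 51.6 and 43.6 points and no overlap.

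The 4 other members with a high ratio of embryo to endosperm tags were 26063210 to 26067409 of chromosome 12, 22841789 to 22846588 of chromosome 8, 19791379 to 19796103 of chromosome 7 and 20319917 to 20324463 of chromosome 10. Their log2 ratios were 1.63, 1.56, 1.51 and 1.36. The region on chromosome 8 held 72.9, 83.7 and 75.6 RPM in embryo and 36.3, 26.8, 22.9 and 19.3 RPM in endosperm. It was covered to 76.4%, 80.6% and 77.7% in embryo and to 77.0%, 53.5%, 47.8% and 48.4% in endosperm, so endosperm at 2 DAP lay within the embryo range of covered shares and below it in tags.

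Within embryo, the long regions were covered less at each later stage. The share went from 62.2% at 3 DAP to 56.6% at 6 DAP and 54.9% at 9 DAP, while the shorter shared regions kept 73.9%, 72.8% and 72.5%. Members covered to 90% or more numbered 221, 133 and 137, and members under 25% numbered 74, 103 and 131, with no like counts over all shared regions. The share at 9 DAP was at least 10 points lower than at 3 DAP in 537 members (34.4%), against 21.1% of all shared regions, and at least 10 points higher in 182 (11.7%), against 17.4%. Depth and the number of peaks were higher at each later embryo stage, and their part in this was not tested.

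Endosperm had no such order. The share was 77.5%, 76.0% and 75.9% at 2, 3 and 6 DAP and 83.2% at 9 DAP. Members covered to 90% or more numbered 636, 559, 563 and 855, again with no like count over all shared regions. From 3 to 9 DAP the share was at least 10 points higher in 522 members (33.5%), against 25.3% of all shared regions, and at least 10 points lower in 178 (11.4%), against 13.3%. Both the lower share in embryo and the higher share in endosperm were met in 181 members (11.6%), against 5.6% of all shared regions, and the opposite of both in 18 (1.15%), against 2.41%. Endosperm at 9 DAP took part in the choice of the members and gave the longest single peak in 578 of them. In regions that the other 6 libraries defined, its share was 76.3% against 74.6% at 3 DAP, a step of 1.72 points. The embryo step in that setting was -8.02 points. With 1 library per stage none of these changes has a replicate check.

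Along the genome, 1556 members lay on the 12 chromosomes and 4 on unplaced sequences. They numbered 4.17 per Mb over all chromosomes, from 2.18 per Mb on chromosome 6 (68 members) to 5.35 per Mb on chromosome 9 (123 members). The end of the last peak on a chromosome stood for its length. Members made up 5.11% of the shared regions of chromosome 6 and 7.27% to 10.3% of those of the other chromosomes. On each of the 12 chromosomes every embryo library covered less of the members than every endosperm library. The embryo means ran from 54.9% on chromosome 10 to 61.6% on chromosome 6. The endosperm means ran from 76.0% on chromosome 3 to 79.5% on chromosome 1. No like count by chromosome was made for shorter shared regions. Over all such regions, embryo libraries also lay below endosperm libraries, at 72.5% to 73.9% against 75.8% to 79.3%. Endosperm peaks mostly set the members' lengths, so the 12 chromosomes are not separate checks of the difference.

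Members were scattered rather than confined to a few places. Of 367 complete bins of 1 Mb, 35 held no member, and the median was 3. The outer 10% at each end of the chromosomes held 160 members (10.3%), compared with 15.8% of the shorter shared regions. The nearest other member was at a median distance of 50.8 kb, and 253 members (16.3%) had another within 10 kb. The richest bin, 19000001 to 20000000 of chromosome 3, held 21 members beside 57 shorter shared regions. Next came the bin from 10000001 to 11000000, with 16 members on chromosome 5 and 15 on chromosome 4. The 29 bins with 10 or more members held 23.1% of the members in bins and 9.50% of the shorter shared regions.

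Each chromosome had a stretch richer in members than its mean. In the 10 consecutive bins of 1 Mb with the most members, the density was 7.2 to 8.7 per Mb on the chromosomes other than chromosome 6, where it was 2.7 per Mb. The densest stretch was on chromosome 12 from 7000001 to 17000000, with 87 members, and the next on chromosome 4 from 3000001 to 13000000, with 86. These stretches were picked for their counts and are a description. Shorter shared regions numbered 54.9 per Mb in that stretch of chromosome 12, against 46.6 per Mb over the chromosome, and 57.5 per Mb in that of chromosome 4, against 44.3 per Mb.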

How the data were processed

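The authors deposited 1 peak list for each of the 7 ZH-11 libraries. Per the file headers, MACS 1.4.2 called peaks on each library separately and without a control. It assumed a genome of 360 Mb and fragments of 200 bp, read tags of 41 bp, kept 1 tag per position, took its local background over 10 kb and reported peaks to a p-value of 1e-05. Bowtie2 is also named in the submitters' processing notes. The build behind the coordinates is not given in the sources used here. A peak's deposited tag count is a whole number of reads, unscaled. The deposited score is -10 times the base-10 logarithm of a peak's p-value, and the deposited fold enrichment is a ratio to the local background of the same library.

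Covered share was the percentage of a region's length inside a library's peaks. RPM was tags in peaks per 1000000 filtered tags; a peak reaching past a region counted in proportion to its overlap. Reads amplified by PCR are not independent molecules, and counting error was not added to the spread between libraries. Two-sided exact permutation tests took 2 times the smaller tail over all labellings. The members and lists were chosen with earlier results of these data known. Regions named are the 10 longest members, the 5 at each end of the difference in covered share and the 5 at each end of the RPM ratio. The region and coverage steps were tested on simulated data. Python 3.11.15, numpy 2.4.6, pandas 2.3.3 and matplotlib 3.10.9 were used. Alternatives varied the length, merging, presence, peak filters, defining libraries, stages, pairing by stage and RPM scaling.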

Additional observations from a re-analysis of the deposited data

Results flagged for a closer look

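In groups of 4 endosperm libraries, a library was set apart when its gap to the nearest other, as a share of the group's range, exceeded the limit of Dixon's test, which chance exceeds in about 1 of 20 groups. Of 44 groups looked at, 3 exceeded it. In regions defined by the other 6 libraries, the median longest peak was 3974 bp in endosperm at 9 DAP, above 3530 to 3562.5 bp in the other 3. In the 11927 bp member of chromosome 5, endosperm at 3 DAP covered 6.56%, and in the 10619 bp member of chromosome 6, endosperm at 9 DAP covered 23.2%.

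From 3 to 9 DAP, 4 measures in regions defined by the other 6 libraries moved in opposite directions in the tissues. The covered share changed by -8.02 points in embryo and 1.72 points in endosperm, and the number of separate peaks by 0.00716 in embryo and -0.157 in endosperm. The median longest peak changed by -397 bp in embryo and 444 bp in endosperm, and the share of regions with a peak of 4 kb or more by -6.66 points in embryo and 12.8 points in endosperm. These differences were not tested, since each stage is 1 library.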

How the results depend on the processing

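The embryo minus endosperm difference kept its direction for 5 of the 7 measures under all alternatives run, 24 or 26 each. The exceptions were the covered share, 1.45 points in regions defined by embryo alone, and the number of separate peaks, -0.0990 with equal numbers of highest-scoring peaks and -0.0224 with that and regions defined by embryo alone. No exact permutation p could pass 0.05 under any of the alternatives. These were not all distinct. Keeping the stages sampled in both tissues, pairing by stage and leaving out endosperm at 2 DAP used the same libraries and gave the same differences. Leaving out 1 library at a time gave differences of -20.4 to -16.5 points in covered share, 0.230 to 0.275 peaks, -1599 to -1367 bp in longest peak, -36.1 to -28.8 points in regions with a peak of 4 kb, -5.05 to -4.17 RPM per kb, 0.382 to 0.62 in fold enrichment and -15.5 to -11.2 points against shorter regions. It left 1335 to 1556 long regions. With the tissues paired by stage the covered-share difference was -19.1 points (exact sign-flip p = 0.25, the smallest possible).

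The number of long regions was 3301 at 3000 bp, 332 at 6000 bp, 861 at a score of 100 or more, 134 at a fold enrichment of 5 or more and 532 for embryo alone. The share of long regions with covered share lower in every embryo library was 23.9% at a fold of 5 or more and 7.71% for embryo alone, and 44.4% to 53.6% without 1 library, where fewer libraries must be apart. The share with covered share higher in every embryo library was 4.57% at 3000 bp, 1.51% at 6000 bp, 4.40% with peaks up to 200 bp apart merged, 4.48% at a fold of 5 or more, 11.8% for embryo alone and 0.399% for endosperm alone, and 2.68% to 3.52% without 1 library. The share with RPM 2-fold lower in embryo was 4.51% for embryo alone and 27.1% to 40.4% without 1 library. In all these shares, the regions for embryo alone or endosperm alone were defined by libraries that were also measured. The share with RPM 2-fold higher in embryo was 1.27% at 3000 bp, 0 at 6000 bp, 1.45% with 200 bp merging, 0.455% with presence over 25% of a region, 0.348% at a score of 100 or more, 6.02% for embryo alone, 0.0666% for endosperm alone and 0.578% to 0.933% without 1 library.

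Of the named regions, the covered-share difference changed sign at a score of 100 or more in the long members of chromosome 11 (12.5 points), chromosome 3 (10.3), chromosome 6 (12.2) and chromosome 10 from 16927028 (0.725). At a fold of 5 or more it did so in the long members of chromosome 5 (12.2, 3.06 and 14.0), chromosome 3 (2.62), chromosome 6 (1.77) and chromosome 12 (11.7), in those covered more in embryo on chromosomes 3 (-4.06), 2 (-36.0) and 4 (-14.5), and in those covered more in endosperm on chromosome 1 (28.7 and 9.55) and chromosome 3 (19.2). The RPM ratio on chromosome 3 from 23214111 became -0.0389 there. The cause was not tested.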
